A study of Rattus norvegicus with 4 samples.

Results

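The genes described here encode secreted growth factors of the fibroblast growth factor (FGF), platelet-derived growth factor (PDGF), vascular endothelial growth factor (VEGF), insulin-like growth factor (IGF) and hepatocyte growth factor (HGF) families, with their receptors, their binding proteins and the angiopoietins. They were chosen by gene symbol from the annotation of a rat expression array. The choice took symbols beginning with Fgf, Fgfr, Igf, Igfbp, Angpt or Angptl and a digit, or with Pdgf or Vegf, and the symbols Hgf, Met, Mst1, Mst1r, Kdr, Flt1, Flt4, Kit and Kitlg. It found 66 of the 14217 genes with a probe set of 1 symbol, on 104 probe sets, and each gene was read from its probe set with the highest mean of the 4 arrays. Of the 66, 4 share only the spelling: Fgfr1op2, a cytoskeletal protein first found as a fusion partner of an FGF receptor, and the RNA-binding proteins Igf2bp1, Igf2bp2 and Igf2bp3. Pdgfb and Mst1r were not analysed here.

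The arrays held RNA of laser-microdissected oral epithelium from male rats of the Sprague Dawley strain. A left upper first molar had been extracted at 4 weeks of age, a titanium alloy implant had been placed, and tissue of 20 rats was taken 4 weeks later. Junctional epithelium, which attaches gingiva to a tooth (2 arrays), and peri-implant epithelium, which lines the soft tissue against the implant (2 arrays), carry the same treatment label, tooth extraction and implant placement. The sources used here do not say how many rats went into an array, or whether the arrays of a group came from separate animals. P-values therefore measure the spread between these arrays, which may be technical.

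As background, these ligands bind receptor tyrosine kinases. In oral mucosa, connective tissue cells supply FGF7, FGF10 and HGF, and the epithelium carries their receptors FGFR2 and MET. Keratinocytes in turn secrete PDGF-A and VEGF-A, which act on fibroblasts and on blood vessels. IGF-binding proteins hold IGF-1 and IGF-2 in the tissue and set how much reaches the IGF-1 receptor, while the IGF-2 receptor carries IGF-2 to lysosomes.

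Signals are log2 values, and their precision is limited by having 4 arrays. A background level of 6.42 was taken from the brightest reading among 27 control probe sets for bacterial genes, and 54.6% to 56.8% of probe sets exceeded it per array. The 18 hybridization controls averaged 13.70 to 13.76 on 3 arrays, and 14.03 on the first peri-implant array. All 10 measured keratinocyte markers were above background on all 4 arrays. Odam, Amtn and Scpppq1, the defining markers of junctional epithelium, were not analysed here, and the enamel matrix genes Ambn and Amelx of the same list were below background on every array, so the tissue labels could not be checked against junctional markers. Markers of other cells were present, and the marker genes named singly below were chosen after their values were seen. All 10 fibroblast, 8 of 9 endothelial and 9 of 11 macrophage and dendritic cell markers were above background on every array.

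In peri-implant epithelium, 6 of the 66 genes rose and 7 fell against junctional epithelium. Vegfa, Vegfc, Angptl4, Igfbp7, Fgf13 and Fgfr1op2 rose. Pdgfra, Pdgfrl, Igfbp2, Igfbp3, Igfbp5, Igf2r and Met fell. Rose and fell mean here an adjusted p that passed 0.05 over all 14217 genes in limma with an intensity trend in the variance prior (Benjamini-Hochberg, two-sided). By the same rule 7.39% of all genes rose and 5.34% fell, 12.7% in all. Of the 25 growth factor genes above background on all arrays, 11 passed (44.0%), where 17.4% of all 8814 genes at that level did. In bulk samples such as these, fewer cells of a type and less RNA per cell cannot be told apart.

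**Figure D1:**
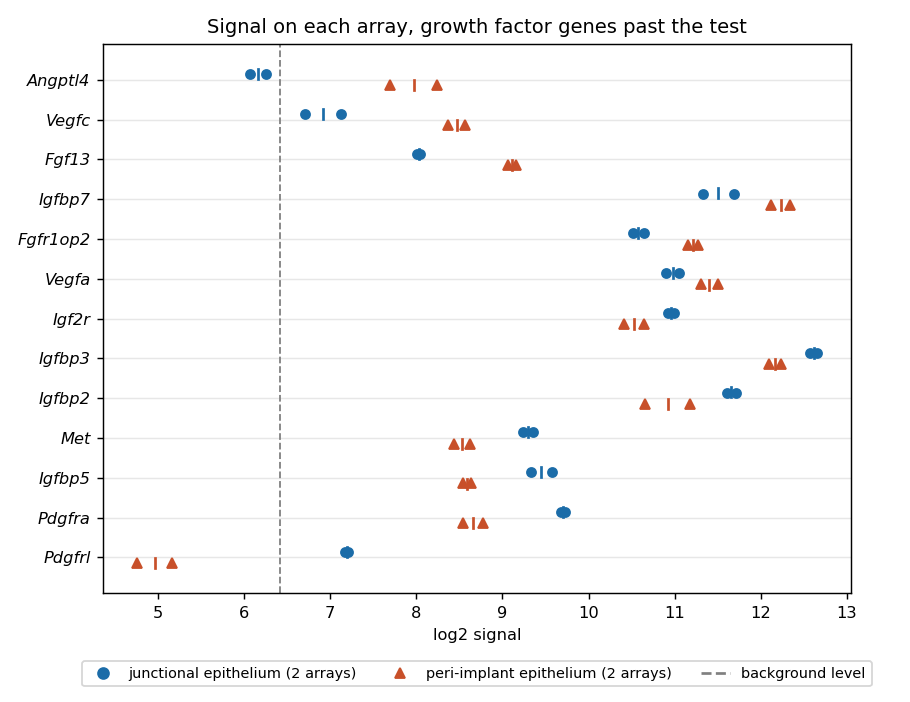
Log2 signal on each array (x axis) of the 13 growth factor genes that passed the test, ordered by their difference (y axis). Circles are the 2 junctional arrays, triangles the 2 peri-implant arrays, short lines the group means, and the dashed line is the background level of 6.42. The groups do not overlap for any of the 13, and Angptl4 and Pdgfrl have 1 group below background.

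These calls rest on the variance model and on all 4 arrays. With limma's default prior 0 of the 66 passed, and 0 of all genes (0.0%), although 16 of the 66 and 2861 of all genes had an unadjusted p under 0.05. The default adjusted p of the 13 ran from 0.0999 to 0.278. Without junctional array 1, 0 of the 66 passed, 1 passed without junctional array 2, 1 without peri-implant array 1 and 2 without peri-implant array 2. Because the groups do not overlap for any of the 13, the sign of their differences could not change with 1 array left out. For 1 gene alone, an exact two-sided permutation test of 2 against 2 arrays cannot give a p below 0.333.

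The remaining 53 genes did not pass. In all, 29 of the 66 were at or below background on every array, 12 exceeded it on some and 25 on all. The arrays of the 2 epithelia did not overlap for 32 of the 66, 16 higher and 16 lower, against 56.3% of all genes (31.2% higher, 25.2% lower). The median difference over the 66 was 0.00, beside 0.05 over all genes, with 33 differences above 0 and 33 below. Over the 25 genes above background on all arrays it was -0.24, beside 0.03 over all genes at that level. These are descriptions, and no test set the 66 against other genes.

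**Figure D2:**
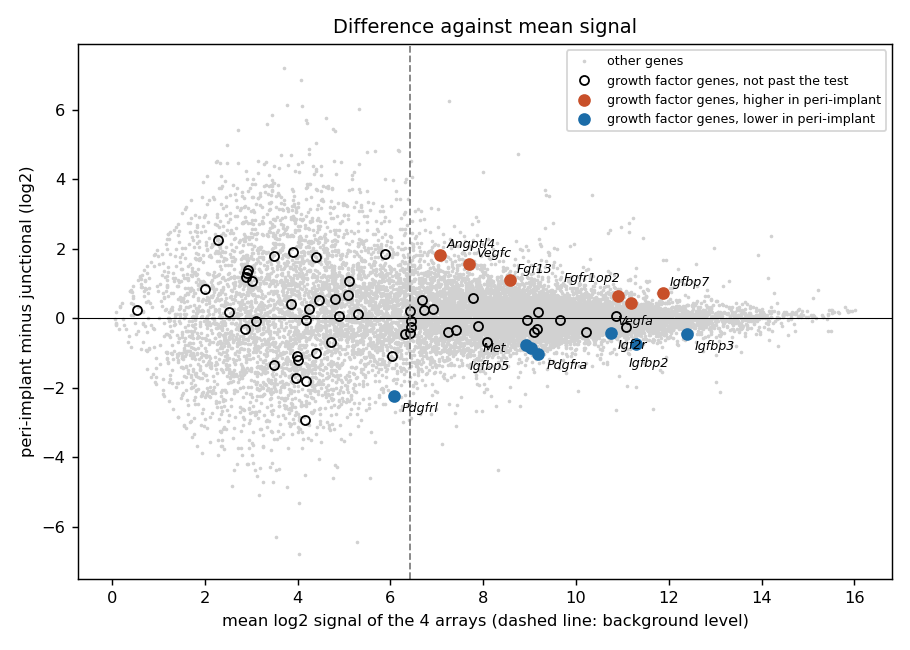
Difference between peri-implant and junctional means (log2, y axis) against the mean log2 signal of the 4 arrays (x axis), with 1 point per gene. Grey points are the other genes, open circles the 53 growth factor genes that did not pass, and filled circles the 6 that rose (orange) and the 7 that fell (blue). Below the background level of 6.42 (dashed line) differences scatter widely around 0.

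VEGF ligands drive the growth of blood and lymphatic vessels, and 2 of the 4 measured rose. Vegfc, best known for lymphatic growth, had signals of 6.71 and 7.13 in junctional versus 8.37 and 8.57 in peri-implant epithelium. Both peri-implant arrays were above both junctional arrays, a difference of 1.55 on the log2 scale (standard error 0.28) or 2.92-fold, with adjusted p = 0.00896. Vegfa, the main ligand for blood vessels, had 10.90 and 11.06 in junctional versus 11.30 and 11.50 in peri-implant epithelium. The groups did not overlap, but the rise was small, 0.42 (standard error 0.11) or 1.34-fold, with adjusted p = 0.0353. The other Vegfa probe set showed a larger difference, from 10.08 and 10.22 to 11.06 and 10.99. Vegfb, the ligand of Flt1, had 6.82 and 6.41 against 6.64 and 7.06, with overlapping groups, and Vegfd was below background throughout. With 1 array left out at a time, adjusted p ran from 0.0562 (without junctional array 2) to 0.103 (without peri-implant array 2) for Vegfc. For Vegfa it ran from 0.0826 (without peri-implant array 1) to 0.234 (without junctional array 1).

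Angptl4, a secreted inhibitor of lipoprotein lipase that fasting and low oxygen are known to induce, rose from below background. It had 6.07 and 6.25 in junctional versus 7.70 and 8.24 in peri-implant epithelium. The junctional arrays lay below background, so the rise was at least 2.93-fold (adjusted p = 0.0131). Adjusted p was 0.0682 without peri-implant array 1 and 0.134 without peri-implant array 2, the lowest and highest with 1 array left out. Angpt2, which destabilizes vessels by antagonizing the receptor Tek, had 5.34 and 4.58 against 6.43 and 7.15. Its groups did not overlap, yet it did not pass (adjusted p = 0.0828), and the junctional arrays were below background. Angpt1, the activating ligand of Tek, had 5.73 and 6.90 against 7.08 and 5.96, with no separation of the groups. Angptl2 and Angptl6 also overlapped, and Angpt4 and Angptl8 stayed below background.

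The receptors of these ligands did not pass. Kdr, the main VEGF-A receptor of blood vessels, had 9.60 and 9.77 in junctional versus 9.75 and 9.52 in peri-implant epithelium. The groups overlapped, and the difference was -0.06 (standard error 0.15). Flt1, a VEGF-A receptor that also acts as a trap, had 7.06 and 7.82 against 6.76 and 7.33, again overlapping. That difference was -0.39, and the other Flt1 probe sets, each above background on 1 array, had differences of 0.08 and 0.42. Flt4, the VEGF-C receptor of lymphatic vessels, was below background on every array. Of 9 measured endothelial markers, 1 fell (Egfl7, an endothelial matrix protein) and 0 rose. Their summed signal (log2 of the sum of linear signals) was 11.12 and 11.30 in junctional versus 10.77 and 10.73 in peri-implant epithelium, and none was at 0 on all arrays. Egfl7 alone went from 9.34 and 9.12 to 7.92 and 7.79, while of the other 8 markers, none past the test, 4 had a lower and 4 a higher mean in peri-implant epithelium. The part of these markers in the VEGF results was not tested.

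The promoters of the 3 vascular factors that rose are shown because these genes moved together. Each is the 250 bases before the transcription start, from RefSeq on the rat assembly GRCr8, 5′ to 3′ on the gene's strand, and capitals mark matches to 3 motifs on either strand. The motifs are ACGTG, the core bound by hypoxia-inducible factors, GGGCGG, the GC box, and TGANTCA, the AP-1 letters with any base at N.
Vegfa promoter, chr9:22452604-22452853, plus strand: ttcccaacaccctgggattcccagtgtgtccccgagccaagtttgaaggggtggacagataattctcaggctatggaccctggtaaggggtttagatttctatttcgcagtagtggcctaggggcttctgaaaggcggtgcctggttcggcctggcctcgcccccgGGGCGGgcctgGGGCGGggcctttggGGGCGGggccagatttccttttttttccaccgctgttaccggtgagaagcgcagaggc
Vegfc promoter, chr16:44560888-44561137, minus strand: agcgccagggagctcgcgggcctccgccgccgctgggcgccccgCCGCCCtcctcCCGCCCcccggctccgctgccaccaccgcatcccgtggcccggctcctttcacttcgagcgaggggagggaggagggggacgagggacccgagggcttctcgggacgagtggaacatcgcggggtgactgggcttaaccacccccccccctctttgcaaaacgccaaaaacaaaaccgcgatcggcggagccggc
Angptl4 promoter, chr7:15258682-15258931, minus strand: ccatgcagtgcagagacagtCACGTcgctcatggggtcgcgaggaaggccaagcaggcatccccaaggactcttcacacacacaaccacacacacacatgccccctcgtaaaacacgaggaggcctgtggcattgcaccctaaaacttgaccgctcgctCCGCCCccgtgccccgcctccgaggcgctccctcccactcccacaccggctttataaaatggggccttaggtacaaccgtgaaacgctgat
Angptl4 holds 1 ACGTG match on the opposite strand, and Vegfa and Vegfc hold none in this window. Vegfa has 3 GC boxes and Vegfc has 2. Of 27457 rat gene promoters of this length, 16.95% hold ACGTG, 32.4% the GC box and 6.36% the AP-1 letters. Among the 12 of 13 genes past the test that matched the table, 4, 7 and 2 hold them, in that order. Among all 56 growth factor genes that matched it, 12 hold ACGTG, 31 the GC box and 3 the AP-1 letters. A match describes letters only.

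Genes of the low-oxygen response moved in the same arrays. Of 16 listed hypoxia-inducible factors and targets, other than the growth factor genes, 8 rose and 1 fell, beside 7.39% and 5.34% of all genes. Their median difference was 0.61, beside 0.05 over all genes. Hif1a, the oxygen-regulated transcription factor, rose from 12.19 and 12.10 to 13.08 and 13.09 (adjusted p = 0.000197). The glucose transporter Slc2a1 rose from 13.43 and 13.68 to 14.80 and 14.61 (adjusted p = 0.000233), and Ndrg1 from 11.49 and 11.34 to 12.08 and 12.17 (adjusted p = 0.00197). The gene that fell, named after its value was seen, was Epas1, a second oxygen-regulated factor, from 11.11 and 10.89 to 10.29 and 10.05. Of 7 measured neutrophil markers, 6 also rose, with a summed signal of 15.23 and 15.24 in junctional versus 16.66 and 16.46 in peri-implant epithelium. S100a8 and S100a9 were by far the brightest of this list and made up most of that sum. S100a8 went from 14.78 and 14.85 to 15.72 and 15.51, and S100a9 from 13.12 and 12.92 to 15.50 and 15.29. The next brightest, Cxcr2, went from 9.47 and 9.61 to 10.95 and 10.96. Whether neutrophils gave these signals was not tested. Macrophage and dendritic cell markers rose for 3 of 11 and fell for 1, with summed signals of 11.95 and 11.74 against 12.45 and 12.64. None of the markers of these 2 lists was at 0 on all arrays. The part of the hypoxia genes and of these markers in the growth factor results was not tested.

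Of 3 measured PDGF receptor genes, 2 fell. Pdgfra, the receptor for PDGF-A and PDGF-C on mesenchymal cells, had 9.72 and 9.67 in junctional versus 8.54 and 8.78 in peri-implant epithelium. The groups did not overlap, with a difference of -1.04 (standard error 0.17) or 2.06-fold lower, with adjusted p = 0.00529, the smallest of the 66. Pdgfrl, which encodes a soluble PDGF receptor-like protein, had 7.18 and 7.21 in junctional versus 4.76 and 5.16 in peri-implant epithelium. The latter lie below background, so it was at least 1.71-fold lower (adjusted p = 0.0245). With 1 array left out, adjusted p ran from 0.0419 (without peri-implant array 2) to 0.0949 (without junctional array 1) for Pdgfra, and from 0.0743 to 0.161 for Pdgfrl with the same arrays left out. Pdgfrb, the receptor of pericytes and fibroblasts, had 7.49 and 7.47 against 7.86 and 8.27. It did not pass (adjusted p = 0.191), and its other 2 probe sets had differences of -0.44 (below background on every array) and -0.11.

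Among PDGF ligands, Pdgfc had 8.37 and 8.47 in junctional versus 7.67 and 7.79 in peri-implant epithelium. The groups did not overlap, but the difference of -0.69 did not pass (adjusted p = 0.0796). Pdgfa, which keratinocytes secrete, had 8.51 and 9.42 against 9.13 and 8.70, with overlapping groups, and Pdgfd was below background on all arrays. Of 10 measured fibroblast markers, 3 rose and 1 fell, and their summed signal was 15.65 and 15.67 in junctional versus 15.84 and 15.83 in peri-implant epithelium. Postn, Thy1 and Col1a1, matrix and surface proteins of fibroblasts, rose and Pdpn fell. Of 9 pericyte and smooth muscle markers, 1 rose (Tagln) and 1 fell (Cspg4), with summed signals of 12.07 and 12.11 against 12.26 and 12.33. None of these markers was at 0 on all arrays, and their part in the PDGF receptor results was not tested.

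The Pdgfra promoter is shown as that of the gene with the smallest adjusted p.
Pdgfra promoter, chr14:33408517-33408766, minus strand: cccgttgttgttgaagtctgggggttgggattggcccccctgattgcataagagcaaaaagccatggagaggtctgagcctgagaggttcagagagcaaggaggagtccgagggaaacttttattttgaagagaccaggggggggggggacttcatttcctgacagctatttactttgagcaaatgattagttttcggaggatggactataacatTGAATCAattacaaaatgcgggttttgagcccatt
Its 1 marked match to the AP-1 letters is TGAATCA, 35 bases before the start. The search took any base at N, and whether AP-1 binds this match was not tested.

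Of 7 measured Igfbp genes, 3 fell, 1 rose and 3 did not pass, and of the 2 IGF receptors, Igf2r fell. Igfbp5, which binds IGFs in the matrix, had 9.33 and 9.57 in junctional versus 8.54 and 8.64 in peri-implant epithelium, 1.82-fold lower (difference -0.86, standard error 0.17, adjusted p = 0.0144). Igfbp2 had 11.60 and 11.71 against 11.18 and 10.66, where peri-implant array 2 was the lowest, and was 1.67-fold lower (difference -0.74, standard error 0.15, adjusted p = 0.0172). Igfbp3, the main IGF carrier of serum and also made by epidermal keratinocytes, had 12.65 and 12.58 against 12.10 and 12.23. It fell by 0.45 on the log2 scale (standard error 0.08, adjusted p = 0.0109), a difference of 1.36-fold that exceeded the spread within either group.

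Igfbp7, a binding protein with low affinity for IGFs that is found in vessel walls, rose. It had 11.33 and 11.69 in junctional versus 12.13 and 12.34 in peri-implant epithelium, 1.65-fold higher (difference 0.72, standard error 0.13, adjusted p = 0.00783). Igfbp4 had 9.22 and 9.42 against 8.97 and 9.03 and did not pass (adjusted p = 0.239). Igfbp6 overlapped between groups, and Igfbp1, the binding protein made by liver, was below background.

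Igf2r, which clears IGF-2, had 10.92 and 10.99 in junctional versus 10.41 and 10.65 in peri-implant epithelium. It fell by 0.43 on the log2 scale (standard error 0.12, adjusted p = 0.0429), the weakest of the 13 calls. Igf1r, the signalling receptor, had 10.86 and 10.81 against 10.91 and 10.87 on its brightest probe set, a difference of 0.06 that did not pass. Its other probe set was lower in peri-implant epithelium, with 10.34 and 10.30 against 9.47 and 9.66 (adjusted p = 0.00886 over all probe sets), so the 2 probe sets of this gene disagree. The ligand Igf1 had 7.66 and 7.51 against 6.97 and 7.48, without overlap but with a wide spread in peri-implant epithelium. Igf2 had 7.11 and 6.18 against 5.80 and 6.63, with overlapping groups, and its probe sets had differences from -1.07 to 0.94. Neither ligand passed.

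With 1 array left out, adjusted p ran from 0.0826 (without peri-implant array 2) to 0.135 (without junctional array 2) for Igfbp5, and from 0.0169 (without peri-implant array 1) to 0.183 (without junctional array 2) for Igfbp2. It ran from 0.04997 (without peri-implant array 2) to 0.139 (without junctional array 1) for Igfbp3, and from 0.0469 (without junctional array 2) to 0.113 (without junctional array 1) for Igfbp7. For Igf2r it ran from 0.0778 (without peri-implant array 2) to 0.223 (without junctional array 2). Igfbp2 did not pass with signals raised to background (adjusted p = 0.0518), nor Igf2r after quantile normalization (adjusted p = 0.0501). With all probe sets of a gene averaged, Igfbp5 and Igf2r did not pass (adjusted p = 0.223 and adjusted p = 0.157).

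Igfbp2 and Igfbp5, which both fell, are neighbours on rat chromosome 9 with 0 annotated genes between them in the GRCr8 gene table. Their promoters are shown for that reason, marked as above.
Igfbp2 promoter, chr9:81864561-81864810, plus strand: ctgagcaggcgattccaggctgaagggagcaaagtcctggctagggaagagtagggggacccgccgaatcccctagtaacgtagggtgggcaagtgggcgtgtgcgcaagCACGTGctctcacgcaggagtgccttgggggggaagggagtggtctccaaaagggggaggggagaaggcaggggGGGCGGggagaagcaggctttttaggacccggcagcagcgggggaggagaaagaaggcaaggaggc
Igfbp5 promoter, chr9:81914188-81914437, minus strand: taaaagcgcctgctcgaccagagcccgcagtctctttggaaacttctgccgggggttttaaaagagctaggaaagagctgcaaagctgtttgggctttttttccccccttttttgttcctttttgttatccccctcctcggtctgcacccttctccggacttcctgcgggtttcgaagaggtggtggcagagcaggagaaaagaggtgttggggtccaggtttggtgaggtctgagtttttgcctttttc
The Igfbp2 window holds the palindrome cacgtg, which matches ACGTG on both strands, and 1 GC box. The Igfbp5 window holds none of the 3 motifs. A similar group of neighbours on chromosome 14 behaved unlike one another: Pdgfra fell, whereas Kit and Kdr, with 0 protein-coding genes between each and the next, overlapped between groups.

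**Figure D3:**
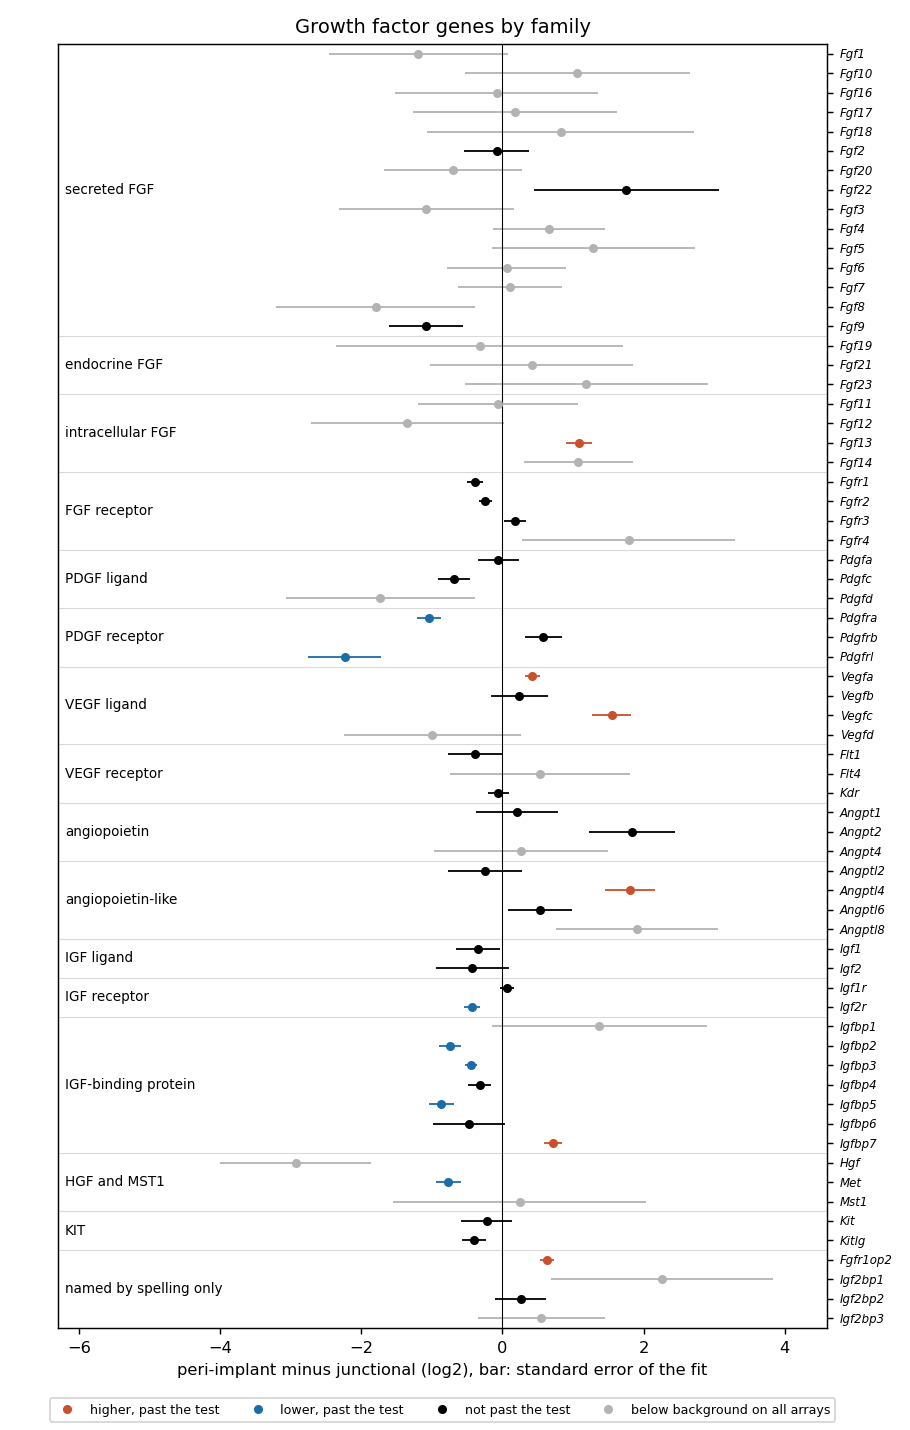
Difference between peri-implant and junctional means (log2, x axis) for all 66 genes, grouped by family (left) with gene symbols on the right. Points are the differences, bars the standard error of the fit, and colours show genes that rose (orange), fell (blue), did not pass (black) or were at or below background on all 4 arrays (grey). Of the 22 FGF genes, only Fgf13 is coloured as past the test.

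Of the 22 FGF genes, 18 were at or below background on every array. Among 15 secreted FGFs, 12 were below background throughout, including Fgf7 and Fgf10, the ligands that stimulate oral epithelium. Fgf2, a broad mitogen stored in the matrix, had 6.20 and 6.75 in junctional versus 6.15 and 6.65 in peri-implant epithelium, close to background with overlapping groups. Fgf9, a ligand with roles in epithelial and mesenchymal development, had 6.67 and 6.48 against 5.27 and 5.71, which did not pass (adjusted p = 0.216). Fgf22 exceeded background on 1 peri-implant array (7.02) and not on the others (3.04, 3.99 and 3.52). The 3 endocrine FGFs, Fgf19, Fgf21 and Fgf23, were below background.

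Fgf13 rose, the 1 FGF that passed. It belongs to the intracellular FGF homologous factors, which are not secreted and bind voltage-gated sodium channels and microtubules. It had 8.04 and 8.01 in junctional versus 9.07 and 9.15 in peri-implant epithelium. Replicates lay close together in both groups, and the difference was 1.08 (standard error 0.19) or 2.12-fold, with adjusted p = 0.00781. The related Fgf11, Fgf12 and Fgf14 were below background. With 1 array left out, adjusted p for Fgf13 ran from 0.0722 (without peri-implant array 1) to 0.0851 (without peri-implant array 2).

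The FGF receptors did not pass, though Fgfr1 did under some other settings. Fgfr1 had 10.48 and 10.35 in junctional versus 10.05 and 10.01 in peri-implant epithelium, without overlap, and a difference of -0.39 (adjusted p = 0.0623). Its adjusted p was 0.0472 with the trend but no robust prior and 0.0390 with only genes above background on 2 or more arrays. It did not pass in limma with the default prior (adjusted p = 0.253) or with averaged probe sets (adjusted p = 0.159). Nor did it pass with signals raised to background (adjusted p = 0.101) or after quantile normalization (adjusted p = 0.0607). Fgfr2, the epithelial receptor for FGF7 and FGF10 in its IIIb form, had 11.19 and 11.22 against 10.92 and 10.998. The difference of -0.24 did not pass (adjusted p = 0.126). Its 5 probe sets did not move alike, with differences from -1.42 to 0.60. The lowest of these had 7.84 and 7.46 against 6.48 and 5.98 (adjusted p = 0.0440 over all probe sets, limma), and which Fgfr2 forms each probe set detects was not analysed here. Fgfr3 had 9.02 and 9.15 against 9.27 and 9.25, a difference of 0.18 that did not pass, and Fgfr4 was below background.

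Fgfr1op2, known in rat oral mucosa as a wound-inducible transcript, is an FGF gene by spelling only. It had 10.65 and 10.52 in junctional versus 11.27 and 11.15 in peri-implant epithelium, 1.55-fold higher (difference 0.63, standard error 0.10, adjusted p = 0.00633). Its other probe set had 9.02 and 8.51 against 8.26 and 8.80, a difference of -0.24, and with both averaged the gene did not pass (adjusted p = 0.470). With 1 array left out, adjusted p ran from 0.0580 (without peri-implant array 2) to 0.0914 (without junctional array 2). Of the Igf2bp genes, Igf2bp2 overlapped between groups near background and the other 2 lay below it.

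**Figure D4:**
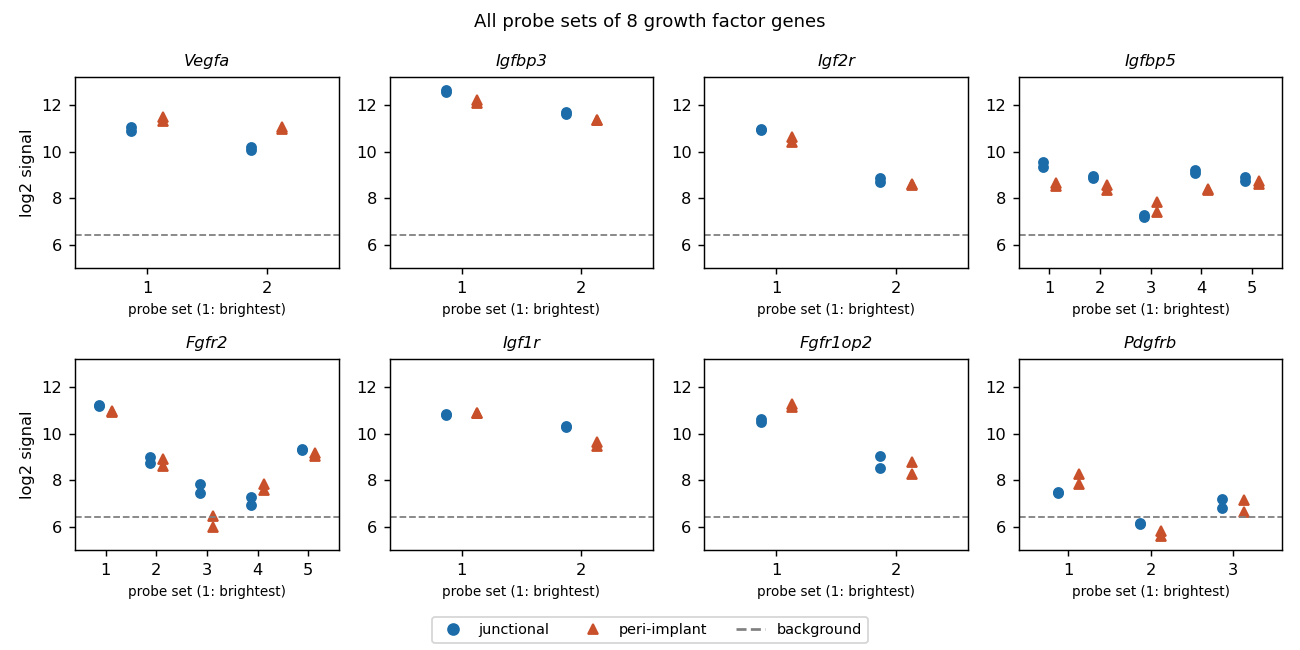
Log2 signal (y axis) on each array for every probe set of 8 growth factor genes, with the brightest probe set, used for the tests, as number 1 on the x axis and the others in no order of signal. Circles are junctional arrays, triangles peri-implant arrays, and the dashed line is the background level of 6.42. Probe sets of Vegfa, Igfbp3 and Igf2r moved the same way, and those of Igfbp5, Fgfr2, Igf1r, Fgfr1op2 and Pdgfrb did not all do so.

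Of the 66 genes, 22 had more than 1 probe set, and for 10 of these all probe sets had the same sign of difference. Of the 13 genes past the test, 5 had more than 1. Both probe sets of Vegfa, Igfbp3 and Igf2r differed in the same direction. For Igfbp5, 4 of 5 did, with differences of -0.86 (the brightest), -0.78, -0.43 and -0.15. The probe set at -0.78 had 9.21 and 9.09 against 8.38 and 8.36. Those at -0.43 and -0.15 did not pass (adjusted p = 0.199 and adjusted p = 0.672 over all probe sets, limma). The exception had 7.28 and 7.21 against 7.83 and 7.39. A signal of one probe set cannot be set against that of another as a level.

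HGF is a mesenchymal factor that makes epithelial cells spread and migrate through its receptor, Met. Met had 9.24 and 9.35 in junctional versus 8.63 and 8.44 in peri-implant epithelium. It fell by 0.77 (standard error 0.18), a 1.70-fold difference with adjusted p = 0.0242. Adjusted p ran from 0.0849 (without peri-implant array 1) to 0.158 (without junctional array 2) with 1 array left out. Hgf was below background on every array, at 5.31 and 5.96 against 2.64 and 2.75, so no fold is given, and Mst1, an HGF-like serum protein, was below 1 throughout. Of 10 keratinocyte markers, 1 rose (Krt4) and 0 fell, with summed signals of 18.10 and 18.15 in junctional versus 18.40 and 18.16 in peri-implant epithelium.

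Kitlg, the stem cell factor that supports mast cells and melanocytes, had 9.36 and 9.25 in junctional versus 9.03 and 8.77 in peri-implant epithelium. The groups did not overlap, and the difference of -0.40 did not pass (adjusted p = 0.163). The Kitlg probe sets had differences from -1.60 to 0.10. Its receptor gene Kit had 7.54 and 8.46 against 8.10 and 7.46, with overlapping groups. Of 9 measured mast cell markers, 8 were below background on every array, including the mast cell proteases Cpa3 and Tpsab1. Of 7 melanocyte markers, 5 were, including Mlana and Dct. Gata2 of the mast cell list exceeded background on 3 arrays, and Pmel and Mitf of the melanocyte list on 1 array each. Which cells gave the Kit signal was not tested.

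Other genes of these pathways, from lists chosen by function, mostly did not pass, and most that did were lower in peri-implant epithelium. Of 18 measured FGF co-receptors, carriers and feedback genes, 1 fell and 0 rose. This was Flrt2, a membrane protein that binds FGF receptors, which went from 11.39 and 11.47 to 10.79 and 10.63 (adjusted p = 0.00313). Of 14 IGF and insulin genes outside the symbol rule, 1 fell and 0 rose: Htra1, a secreted protease that cleaves Igfbp5, with 12.23 and 12.10 against 11.71 and 11.68 (adjusted p = 0.00973).

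Of 11 VEGF and angiopoietin co-receptors and partners, 2 fell and 0 rose. Nrp2, the co-receptor for VEGF-C, fell from 11.42 and 11.42 to 10.62 and 10.61 (adjusted p = 0.00113), and Aplnr, the apelin receptor of vessels, from 9.79 and 9.74 to 8.96 and 8.59 (adjusted p = 0.00801). Tek and Tie1 were named after their values were seen. Tek, the angiopoietin receptor, had 8.12 and 7.97 against 7.22 and 6.90 and did not pass (adjusted p = 0.0528), and Tie1, its partner, had 7.19 and 7.39 against 8.15 and 8.17 and did not pass either (adjusted p = 0.0582). The ligand Vegfc and its co-receptor Nrp2 thus differed in opposite directions.

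Of 10 measured genes of a list on HGF and MST1 activation and adaptors, 1 rose and 1 fell. The adaptor Gab1, which carries the Met signal, fell from 9.98 and 10.05 to 9.44 and 9.58 (adjusted p = 0.0417), and Cblc, an epithelial ubiquitin ligase of the CBL family, rose from 7.89 and 8.21 to 8.99 and 9.15 (adjusted p = 0.0149). Of 15 adaptors shared by receptor tyrosine kinases, 2 fell and 0 rose. These were Cbl, which marks activated receptors for degradation, from 10.04 and 10.54 to 9.18 and 9.35 (adjusted p = 0.00815), and the RAS activator Sos2, from 10.78 and 11.06 to 10.26 and 10.29 (adjusted p = 0.0114). Each of these shares stands beside the 12.7% of all genes that passed. Over these lists, the hypoxia list and the marker lists together, 36 of 173 genes passed, and 11 to 15 did with 1 array left out. Of the remaining marker lists, 0 of 7 skeletal muscle genes passed and 2 were above background on every array, and all 5 salivary gland genes were at or below background on every array. Of 5 bone and cementum genes, 1 fell and 0 rose, with summed signals of 10.20 and 10.52 in junctional versus 9.55 and 9.94 in peri-implant epithelium. The gene that fell was Bglap, which encodes osteocalcin, from 9.445 and 9.66 to 6.85 and 7.18. The lower sum was not shared by most of the list, whose median difference was 0.28. Ibsp, above background on every array, had a difference of 0.28 with overlapping groups. Dmp1 and Sost also had higher peri-implant means (differences 0.63 and 1.05), and Phex a lower one (-0.50). Dmp1 and Phex were below background on every array, and Sost exceeded it on 1. The part of these genes in the growth factor results was not tested.

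**Figure D5:**
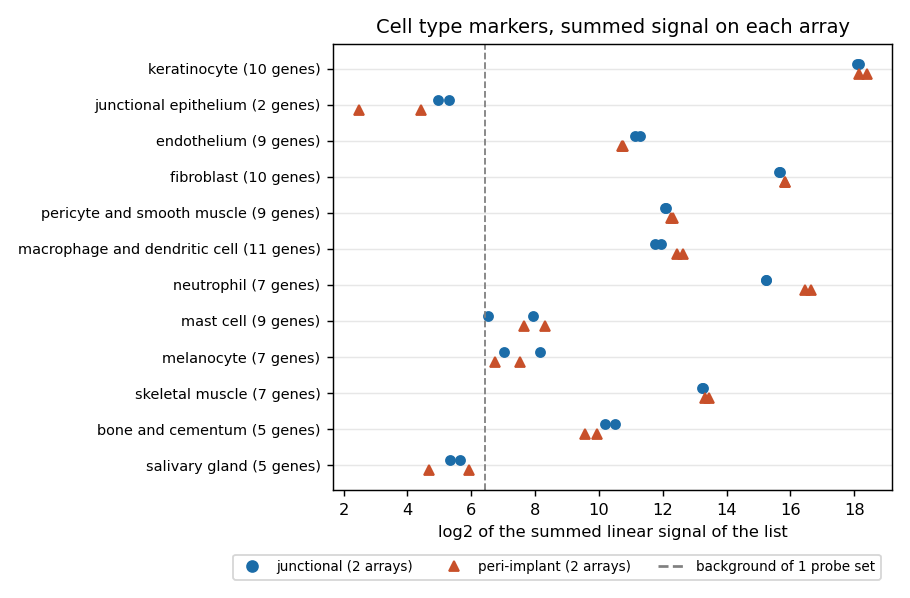
Log2 of the summed linear signal of each cell type marker list (x axis) on each array, with the number of measured genes in parentheses (y axis). Circles are the 2 junctional arrays, triangles the 2 peri-implant arrays, and the dashed line is the background level of a single probe set. Neutrophil and macrophage sums are higher on both peri-implant arrays, endothelial and bone and cementum sums lower, and fibroblast sums slightly higher. Most of the neutrophil sum is S100a8 and S100a9. In the bone and cementum list only Bglap passed the test, and the median difference of that list was 0.28.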

How the data were processed

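Per the labels' protocols, RNA was amplified with a NuGEN Ovation kit and labelled with biotin. The authors deposited log2 signals for 31099 probe sets on 4 arrays. Software for these signals was not given in the sources used here. Each array proved to be scaled to a trimmed mean linear signal of 500.19, with linear signals floored at 1. They were not normalized again.

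The 57 controls were dropped. Of the rest, 20826 had 1 symbol in the platform annotation, 436 several and 9780 none. The epithelia were compared by limma 3.58.1 under R 4.3.3 (lmFit, eBayes with trend and robust prior, Benjamini-Hochberg over 14217 genes), which was tested on simulated data. The simulated spreads were drawn by signal level from these data, so that test cannot decide between this prior and the default one. The genes, lists and this prior were chosen with earlier results of these data known, among them that the default prior passes no gene. Where an array of the lower group was below background, it was raised to it for a fold, given as "at least". The naming rule took every growth factor gene past the test and above background on an array, then the other growth factor genes by family, and up to 3 genes per pathway list. Alternatives were other priors, all probe sets, averaged probe sets, quantile normalization, a filter, a floor, a replicate block and each array left out.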

Additional observations from a re-analysis of the deposited data

How the results depend on the processing

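With the default variance prior, 0 of all genes, 0 of the 66 growth factor genes and 0 of the 173 pathway and marker genes passed, against 1810, 13 and 36 with an intensity trend. With 1 array left out, 241 to 398 of all genes, 0 to 2 growth factor genes and 11 to 15 pathway and marker genes passed, and a lone array was assumed to vary like the other group. With all 31042 probe sets in the fit, so more features tested, 2762 passed, and 12 of the 13 growth factor genes (not Igf2r). The intensity trend without the robust prior, averaged probe sets, quantile normalization, a filter for 2 arrays above background, raising signals to background and the replicate block gave 10 to 14 growth factor genes, all of the 13 being kept in the first, the filter and the block, and 10 to 12 in the others. The titles' replicate numbers do not say whether same-numbered arrays belong together, and the main fit used no pairing. Deviations of same-numbered arrays correlated at 0.039 over all probe sets (0.061 above background), which cannot settle this. With the replicate block 2470 of all genes, 14 growth factor genes and 48 pathway and marker genes passed. The added growth factor gene was Fgfr1 (adjusted p = 0.0448), which also passed without the robust prior (0.0472) and with the filter (0.0390). No growth factor gene past the test changed sign under any of these settings, which was fixed in advance where an array was left out. Genes at or below 6.42 on every array cannot show a difference here.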
